A study of Mus musculus with 6 samples.

Results

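The genes described here are those of the proteasome, taken as every probe whose gene symbol on the array starts with Psm, then a letter from a to g and a digit. The rule gave 67 probes of 45 genes, out of 16593 genes named on the array. Of the 45 genes, 43 encode proteasome subunits, activators or assembly chaperones. The other 2, Psmc3ip and Psme3ip1, carry a subunit's name because their proteins bind it, and are given apart. Of the 45 genes, 39 passed the filter on dim probes and were tested, 37 of them proteasome genes. A gene was tested when its detection p, which sets a probe against the negative control beads of the array, stayed under 0.05 on every array of the untreated group, of the TGF-β1 group or of both.

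The cells were GIF-14, an immortalized epithelial line from fetal mouse stomach with the genotype Runx3-/-;p53-/-, in its epithelial fraction before epithelial-mesenchymal transition. Both groups share this genotype and are of 1 line, so no cells with intact Runx3 or p53 stand beside them. RNA from 3 untreated cultures and from 3 cultures given TGF-β1 at 2.5 ng/ml for 24 h was read on a bead array, the Illumina MouseRef-8 version 2. The paper calls the cultures biological triplicates, and the labels do not say how separate they were. The p-values set the difference between the groups against the spread of these 6 arrays within their groups, and reach no further.

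The proteasome is the protease that destroys proteins tagged with ubiquitin. Its 20S core is a barrel of outer alpha rings, which gate the entrance, and inner beta rings, which hold the cutting sites. The 19S particle docks on the core, and there a lid receives and de-tags the substrate while a ring of ATPases unfolds it. Interferon-γ makes cells replace the cutting subunits by Psmb8, Psmb9 and Psmb10 and add the PA28 activator of Psme1 and Psme2, which changes the peptides offered on MHC class I. When proteasomes are short of capacity, the transcription factor Nrf1, encoded by Nfe2l1, raises the subunit genes together through antioxidant response elements in their promoters.

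To show the DNA in which such elements would lie, the 120 bases before the start site are shown for the genes with the 2 largest increases among the subunits, Psmd8 and Psmc5, and for 3 genes with a searched motif. All are from RefSeq, build GRCm38.p6, written 5′ to 3′ on the gene's strand, with motifs in capitals. Psmd8 lies at chr7:29180674-29180793 on the minus strand, Psmc5 at chr11:106256065-106256184 on the plus strand and Psmb3 at chr11:97703314-97703433 on the plus strand. Psmb5 lies at chr14:54617996-54618115 on the minus strand and Psmb8 at chr17:34198075-34198194 on the plus strand.
Psmd8: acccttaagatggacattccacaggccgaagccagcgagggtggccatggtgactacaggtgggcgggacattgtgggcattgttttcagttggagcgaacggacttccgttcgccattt
Psmc5: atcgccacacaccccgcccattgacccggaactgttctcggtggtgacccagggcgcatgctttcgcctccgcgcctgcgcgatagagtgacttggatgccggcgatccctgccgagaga
Psmb3: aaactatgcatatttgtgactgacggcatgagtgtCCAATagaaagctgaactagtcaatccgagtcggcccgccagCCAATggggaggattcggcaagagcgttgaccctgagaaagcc
Psmb5: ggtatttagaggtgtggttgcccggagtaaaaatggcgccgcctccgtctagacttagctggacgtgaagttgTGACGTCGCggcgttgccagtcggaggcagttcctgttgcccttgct
Psmb8: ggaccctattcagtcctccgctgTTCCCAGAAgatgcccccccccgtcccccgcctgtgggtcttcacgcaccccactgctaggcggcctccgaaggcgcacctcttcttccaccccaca
In Psmb3 the capitals mark a pair of CCAAT boxes, in Psmb5 the core of an antioxidant response element and in Psmb8 a gamma-activated site, the type of element that interferon-γ signaling uses. In Psmd8 and Psmc5 none of the 3 motifs was found in the bases shown.

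Over windows from 250 bases before to 50 bases after the start site, searched on both strands, 39 members had a window in RefSeq, 14 of them called genes. The antioxidant response element core, TGACNNNGC, was in the windows of Psmb5, Psmb6, Psmc6, Psmd9, Psmd12 and Psme4, or 14.0% of the members' windows and 12.4% of all 32851 windows. Of these 6 genes, Psmb5, Psmb6 and Psmd12 were called higher. The CCAAT box was in 34.9% of the members' windows and 37.4% of all, and the gamma-activated site, TTCNNNGAA, in 6.98% and 8.3%. No member's window held more than 1 kind of motif, so the matches of different motifs did not overlap. These shares describe letters in a window, not binding.

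Levels are given as log2 of the quantile-normalized signal, and changes as TGF-β1 over untreated, with the standard error (SE) of limma's fit and n = 3 arrays per group. After 24 h of TGF-β1, 15 of the 39 tested members were higher and 0 were lower (limma, adjusted p under 0.05 over all 7725 genes tested), or 38.5%, while 17.3% of all genes tested were called higher and 18.4% lower. At an unadjusted p under 0.05, 21 members were higher and 0 lower. The log2 fold change was positive for 37 of 39 members, against 54.0% of all genes. Every TGF-β1 array lay above every untreated array for 25 members, and below for 0, against 24.6% and 23.7% of all genes. The changes were small, with a median of 0.22 on the log2 scale (1.17-fold) beside 0.03 over all genes. Only 1 member, Psmd8, exceeded 1.5-fold, and with that limit added 2.56% of members and 5.8% of all genes were called higher. Leaving out untreated array 1, untreated array 2 or TGF-β1 array 2 left 7, 8 and 7 members called higher. These were 17.9%, 20.5% and 17.9% of the members tested, beside 11.6%, 11.6% and 11.9% of all genes in the same fits, a narrower gap than with all 6 arrays. With any array left out 0 members were called lower.

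**Figure D1:**
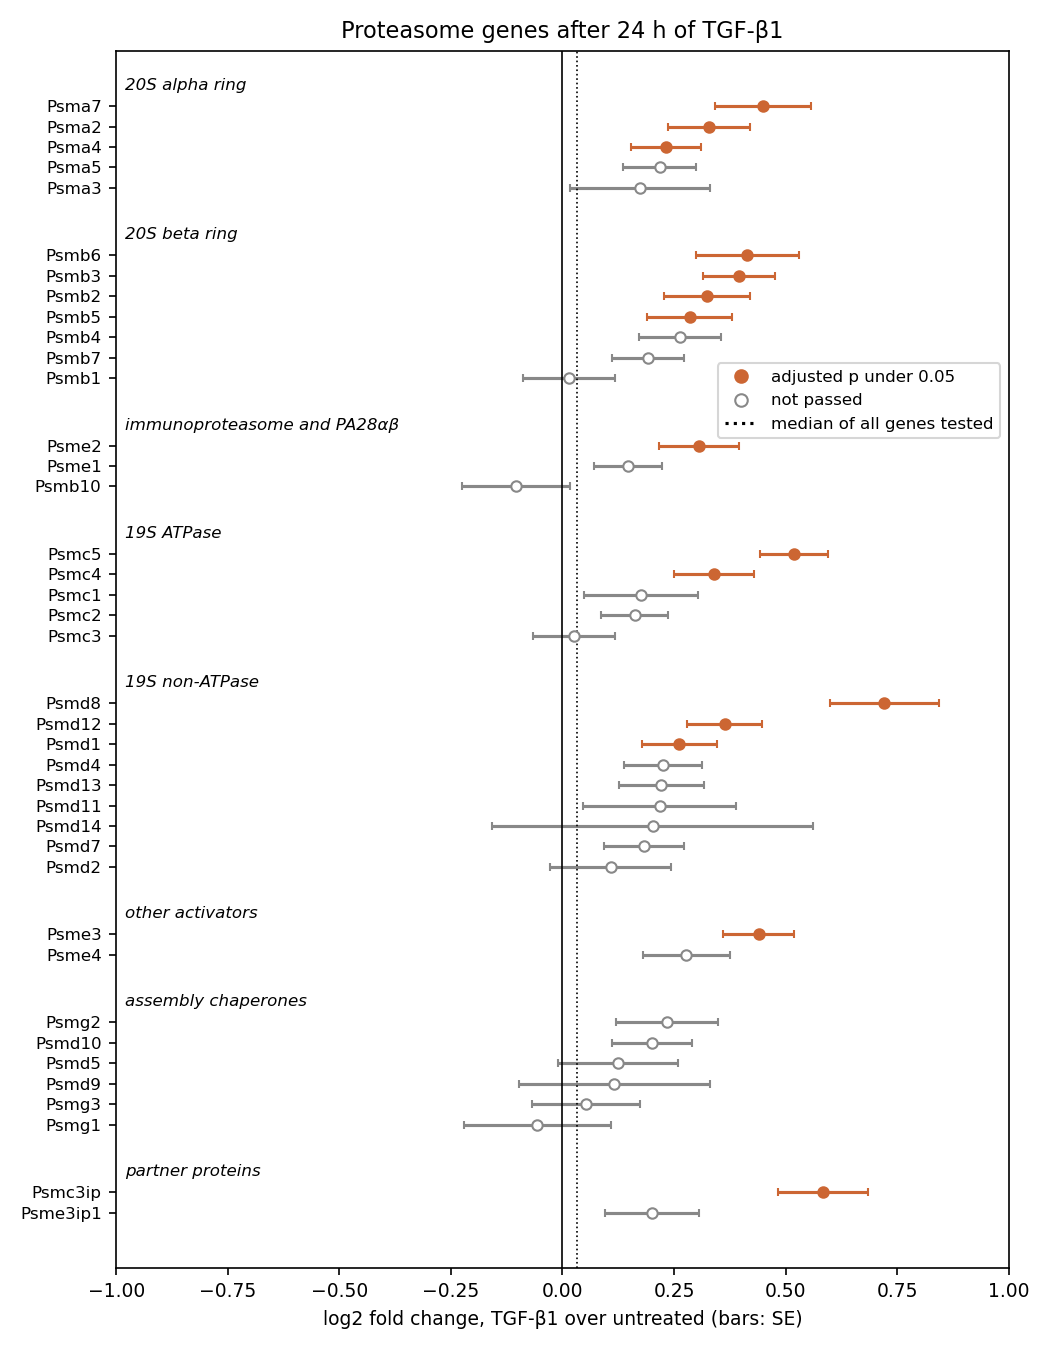
Log2 fold change (x axis, TGF-β1 over untreated) of the 39 tested members by role, as points with SE bars; filled points passed the adjusted threshold and the dotted line is the median of all genes tested. All 15 filled points lie right of 0, between 0.23 for Psma4 and 0.72 for Psmd8.

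**Figure D2:**
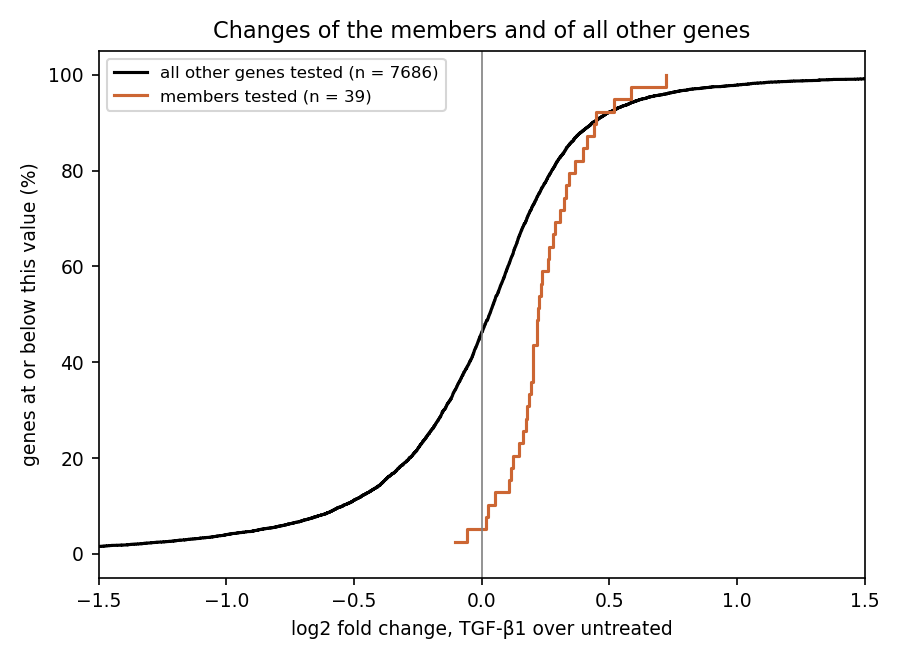
Share of genes (y axis, %) at or below each log2 fold change (x axis) for the 39 members and the 7686 other genes tested. The members' curve starts at -0.10 for Psmb10 and has its median at 0.22, where the other genes have theirs at 0.03.

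The alpha and beta rings of the 20S core held 7 of the 15 called genes, 58.3% of the core genes tested beside 17.3% of all genes. Of the alpha subunits, Psma7, Psma2 and Psma4 were higher among 5 tested of 7, and of the beta subunits, Psmb6, Psmb3, Psmb2 and Psmb5 were higher among all 7, with 0 lower in either ring. The median log2 fold change of the 12 tested core genes was 0.27. For 10 of them, or 83.3%, the groups did not overlap, beside 24.6% of all genes higher in this way. Psma1 and Psma6 were not above background on any array. The alpha subunits frame the gate through which substrates enter, and Psma7 had the largest change among them. Its log2 signal was 11.87, 11.91 and 12.21 in untreated cells and 12.53, 12.42 and 12.40 with TGF-β1, a log2 fold change of 0.45 (SE 0.11, limma adjusted p = 0.0125). The lowest treated array thus lay above the highest untreated one. A second Psma7 probe gave 0.44 (adjusted p = 0.0156 over all probes). Psma2 rose by 0.33 (SE 0.09) and Psma4 by 0.23 (SE 0.08) on the log2 scale. Psma5 and Psma3 did not pass, with 0.22 (adjusted p = 0.0727) and 0.17 (adjusted p = 0.430), although Psma3 passed at 0.32 (adjusted p = 0.0159) with array brightness, the mean signal of each array, as a covariate.

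Psmb5, Psmb6 and Psmb7 carry the chymotrypsin-like, caspase-like and trypsin-like cutting sites of the core. Psmb6 gave 12.12, 12.22 and 11.99 in untreated cells and 12.30, 12.64 and 12.64 with TGF-β1, a log2 fold change of 0.41 (SE 0.12, limma adjusted p = 0.0235). TGF-β1 array 1 was the lowest treated array and still lay above all untreated ones. Psmb5 gave 9.63, 9.45 and 9.34 against 9.71, 9.78 and 9.79, a log2 fold change of 0.29 (SE 0.09, limma adjusted p = 0.0461). The gap between its groups was narrow, from 9.63 on untreated array 1 to 9.71 on TGF-β1 array 1. Psmb7 gave 12.49, 12.35 and 12.48 against 12.60, 12.64 and 12.66, a log2 fold change of 0.19 (SE 0.08) that did not pass (limma adjusted p = 0.1002), although its groups did not overlap.

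Of the beta subunits without a cutting site, Psmb3 rose by 0.40 (SE 0.08, limma adjusted p = 0.00555) and Psmb2 by 0.32 (SE 0.10, limma adjusted p = 0.0306) on the log2 scale. Psmb4 did not pass at 0.26 (adjusted p = 0.0558), and Psmb1 stood at 0.02 with overlapping groups. Psmb3 kept its call with each array left out in turn, with limma adjusted p up to 0.0304. Psma2 lost it without untreated array 1 (adjusted p = 0.0859) or TGF-β1 array 2 (0.0904), and Psma7 without untreated array 1 (0.0524) or 2 (0.0508). Psmb2 lost it without untreated array 1 (0.0790) or 2 (0.104) or TGF-β1 array 1 (0.0691) or 2 (0.104). Psmb6 lost it without untreated array 1 (0.0640) or 3 (0.0547) or TGF-β1 array 2 (0.0931) or 3 (0.0689). Psma4 lost its call without any 1 of the 6 arrays (0.0688 to 0.151), and Psmb5 without any but untreated array 1 (0.0826 to 0.128).

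**Figure D3:**
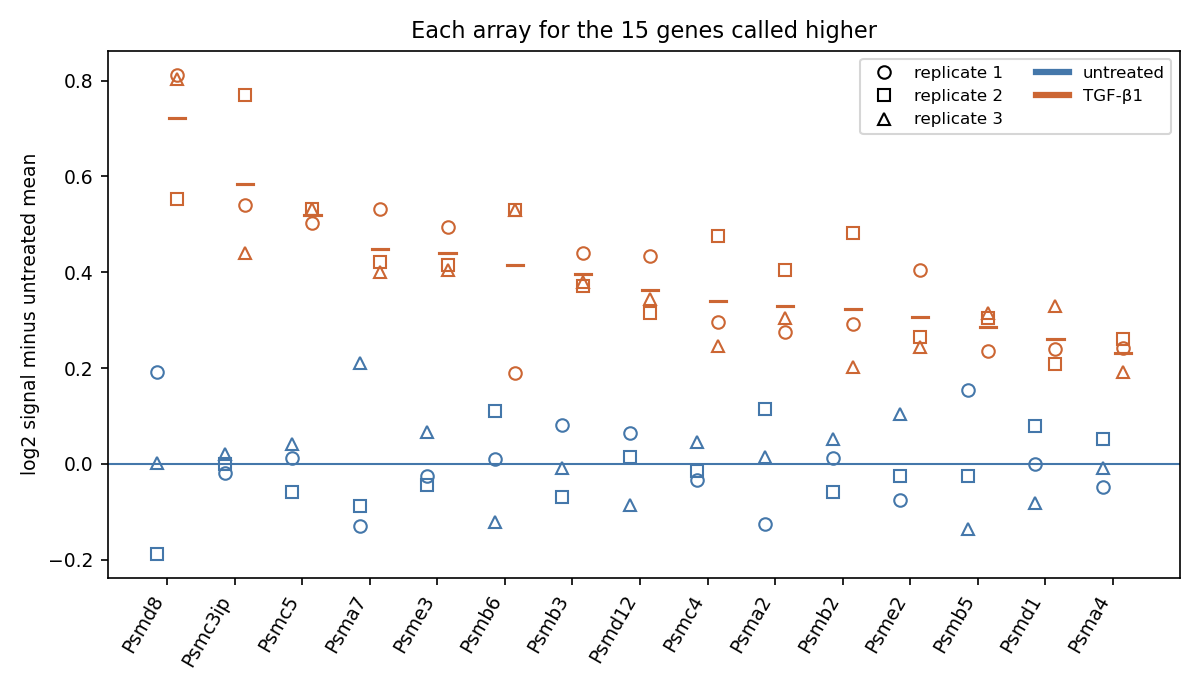
Log2 signal of each array minus the gene's untreated mean (y axis) for the 15 genes called higher (x axis), with 1 symbol per replicate number and a short bar at the TGF-β1 mean. For each gene the TGF-β1 arrays lie above all untreated arrays.

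In the 19S particle, 5 of 14 tested genes were higher and 0 lower, with a median log2 fold change of 0.22. That was 35.7% higher, beside 17.3% of all genes tested. The largest change of any member was that of Psmd8, a lid subunit known as Rpn12 in yeast. Its log2 signal was 11.21, 10.83 and 11.02 in untreated cells and 11.83, 11.57 and 11.82 with TGF-β1. The groups were apart by 0.36 at the nearest pair of arrays. The log2 fold change was 0.72 (1.65-fold, SE 0.12, limma adjusted p = 0.00213), and it passed under each of the 18 alternatives run. Psmd8 had only 1 probe on the array, so no alternative could set this change against another probe.

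Psmc5 is a member of the ATPase ring that unfolds the substrate. It gave 10.83, 10.76 and 10.86 in untreated cells and 11.32, 11.35 and 11.35 with TGF-β1, a log2 fold change of 0.52 (1.43-fold, SE 0.08, limma adjusted p = 0.00104). The 3 treated arrays lay within 0.03 of each other. A second Psmc5 probe gave 10.65, 10.77 and 10.71 against 10.90, 10.83 and 11.15, a log2 fold change of 0.25 that did not pass (adjusted p = 0.105 over all probes). Of the other ATPases, Psmc4 rose by 0.34 (SE 0.09, limma adjusted p = 0.0184), a call lost without untreated array 1 (0.0654) or 2 (0.0617) or TGF-β1 array 2 (0.0716). Psmc1, Psmc2 and Psmc3 did not pass, at 0.18, 0.16 and 0.03, while Psmc1 passed at 0.29 (adjusted p = 0.0126) with the brightness covariate. Psmc6 was not above background on any array.

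Among the subunits that are not ATPases, Psmd12, of the lid, rose by 0.36 on the log2 scale (SE 0.08, limma adjusted p = 0.0101) and kept its call with each array left out. A dimmer Psmd12 probe gave 7.57, 7.43 and 6.61 against 6.92, 7.06 and 7.97, a log2 fold change of 0.12 with overlapping groups (adjusted p = 0.821 over all probes), and the mean of both probes did not pass (adjusted p = 0.336). Psmd1, the large scaffold of the base, rose by 0.26 (SE 0.08, limma adjusted p = 0.0413), and lost its call without any 1 of the 6 arrays (0.0630 to 0.109). The ubiquitin receptor Psmd4 (0.23, adjusted p = 0.0785), the lid genes Psmd13 (0.22), Psmd7 (0.18) and Psmd11 (0.22) and the scaffold Psmd2 (0.11) did not pass. With the brightness covariate Psmd11 passed, at 0.39 (adjusted p = 0.00438).

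Psmd14, the deubiquitinase that strips ubiquitin chains at the lid, had the widest spread of the members. It gave 10.00, 9.69 and 8.69 in untreated cells and 9.04, 9.86 and 10.08 with TGF-β1. Untreated array 3 and TGF-β1 array 1 were low, so the groups overlapped and the log2 fold change of 0.20 had an SE of 0.36. Without untreated array 3 it was -0.18. These were 2 of the 3 dimmest arrays, with a mean raw signal of 435 and 406, beside 439 to 519 for the other 4. With the mean signal of each array as a covariate, the log2 fold change of Psmd14 was 0.58 (limma adjusted p = 0.0115). The best probe of Psmd6, also of the lid, was above background on 2 of 3 arrays in each group, so the gene was not tested.

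The other activators open the core without ATP. Psme3, the nuclear PA28γ, gave 10.47, 10.45 and 10.56 in untreated cells and 10.99, 10.91 and 10.90 with TGF-β1, a log2 fold change of 0.44 (1.36-fold, SE 0.08, limma adjusted p = 0.00307). All treated arrays lay at least 0.34 above all untreated arrays. Psme4, known as PA200, gave 0.28 with groups that did not overlap but did not pass (adjusted p = 0.0552). Its second probe gave 0.09 (adjusted p = 0.553 over all probes).

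Of the 6 assembly chaperones that the symbol rule takes in, 0 were called in either direction, with a median log2 fold change of 0.12. Pomp, a maturation factor of the core that the rule leaves out, was called higher and is given below. Since 17.3% of all genes tested were called higher and 18.4% lower, a count of 0 among 6 genes shows little. These proteins guide the building of the particle and leave it when finished. Psmg2 and Psmg1, which pair to build the alpha ring, gave 0.23 (adjusted p = 0.147) and -0.06 (adjusted p = 0.827), and Psmg3 gave 0.05. Psmd10, Psmd5 and Psmd9, which act on the ATPase ring, gave 0.20, 0.12 and 0.12. Psmd9 passed with the brightness covariate, at 0.34 (adjusted p = 0.0116), and Psmg2 without untreated array 3, at 0.36 (adjusted p = 0.0138). Only Psmd10 among the 6, or 16.7%, had groups that did not overlap, beside 24.6% of all genes higher in this way. Its 3 tested probes gave 0.20, 0.23 and -0.10, so they differed in direction. That the chaperones differ in response from the subunits was not tested.

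**Figure D4:**
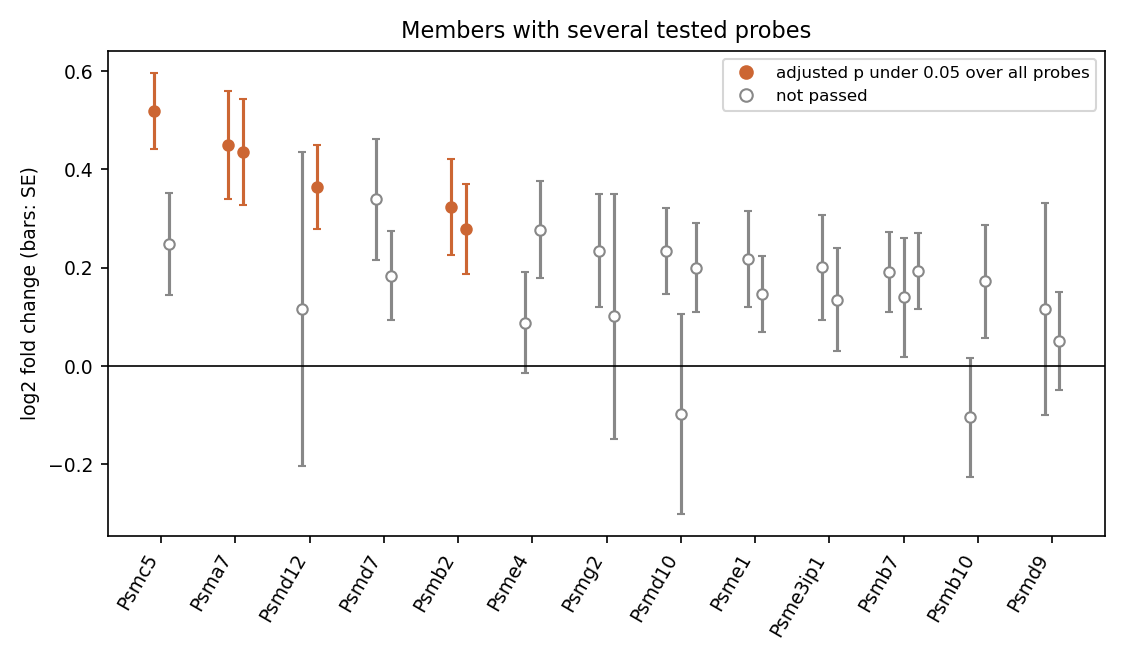
Log2 fold change with SE (y axis) of each tested probe of the 13 members with several tested probes (x axis); filled points passed the adjusted threshold over all 11189 tested probes. Both probes of Psma7 and of Psmb2 passed, 1 of 2 for Psmc5 and Psmd12, and the probes of Psmd10 and of Psmb10 lie on both sides of 0.

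Probe by probe, 15 of the 54 tested member probes were higher and 0 lower after adjustment over all probes, and 51 were positive, while 16.4% of all probes were called higher and 15.9% lower. Adjusted over probes, Psmb5 (adjusted p = 0.0521) and Psma4 (adjusted p = 0.0548) missed the threshold, and a second probe of Psma7 and of Psmb2 passed. The deposited tables were used without probe sequences, so it was not checked whether a probe also matches a related gene. RefSeq lists pseudogenes of Psma5, Psmb5, Psmb6 and Psmb7 and a protein-coding copy of Psme2, Psme2b. Of these, Psmb5, Psmb6 and Psme2 were called, and their values are uncertain to that extent. Only symbols that extend a member's own name were searched, so copies under other names were not looked for. The other called genes may have such copies too.

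Of the 5 immunoproteasome genes 3 were tested, and 1 of these, Psme2, was higher and 0 were lower, beside 17.3% and 18.4% of all genes. Psmb8 and Psmb9, cutting subunits that interferon-γ brings in, were not above background on any array. The log2 signal of Psmb8 was 6.37, 6.45 and 6.31 in untreated cells and 6.48, 6.42 and 6.36 with TGF-β1, with detection p from 0.142 to 0.365. That of Psmb9 was 6.28, 6.27 and 6.38 against 6.61, 6.41 and 6.52, with detection p from 0.0714 to 0.400. Neither gene rose above background with TGF-β1. A fall, or a change that stays below background, was not detectable on these arrays, and no fold change is given.

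Psmb10, the third immunoproteasome cutting subunit, was above background on all arrays at 9.34, 9.55 and 9.69 in untreated cells and 9.45, 9.57 and 9.25 with TGF-β1. The groups overlapped, and the log2 fold change was -0.10 (SE 0.12, limma adjusted p = 0.544). A dimmer probe of Psmb10 gave 8.84, 8.96 and 9.26 against 9.22, 9.17 and 9.20, or 0.17 (adjusted p = 0.294 over all probes). Psmb10 takes the place of Psmb7 in the beta ring. The per-array difference of their log2 signals, of which only the change is read, was -3.15, -2.81 and -2.79 in untreated cells and -3.14, -3.07 and -3.41 with TGF-β1. The difference between the groups was -0.30 (SDs 0.20 and 0.18), which was not distinguishable from the spread (exact two-sided permutation test, p = 0.3, where 3 against 3 arrays cannot give less than 0.1). It was -0.14 with the mean of the tested probes, and ran from -0.42 without untreated array 1 to -0.20 without TGF-β1 array 3. The same difference for Psmb8 with Psmb5 and for Psmb9 with Psmb6 could not be had.

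Psme1 and Psme2 together encode the PA28 ring. Psme2 gave 9.07, 9.12 and 9.25 in untreated cells and 9.55, 9.41 and 9.39 with TGF-β1, a log2 fold change of 0.31 (SE 0.09, limma adjusted p = 0.0280). The call was lost without untreated array 1 (0.101) or 2 (0.0939) or TGF-β1 array 1 (0.101) or 2 (0.0667). Psme1 gave 11.22, 11.16 and 11.14 against 11.29, 11.34 and 11.34, a log2 fold change of 0.15 (SE 0.08) that did not pass (limma adjusted p = 0.175), with groups that did not overlap. That Psme1 and Psme2 differ in their change was not tested.

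**Figure D5:**
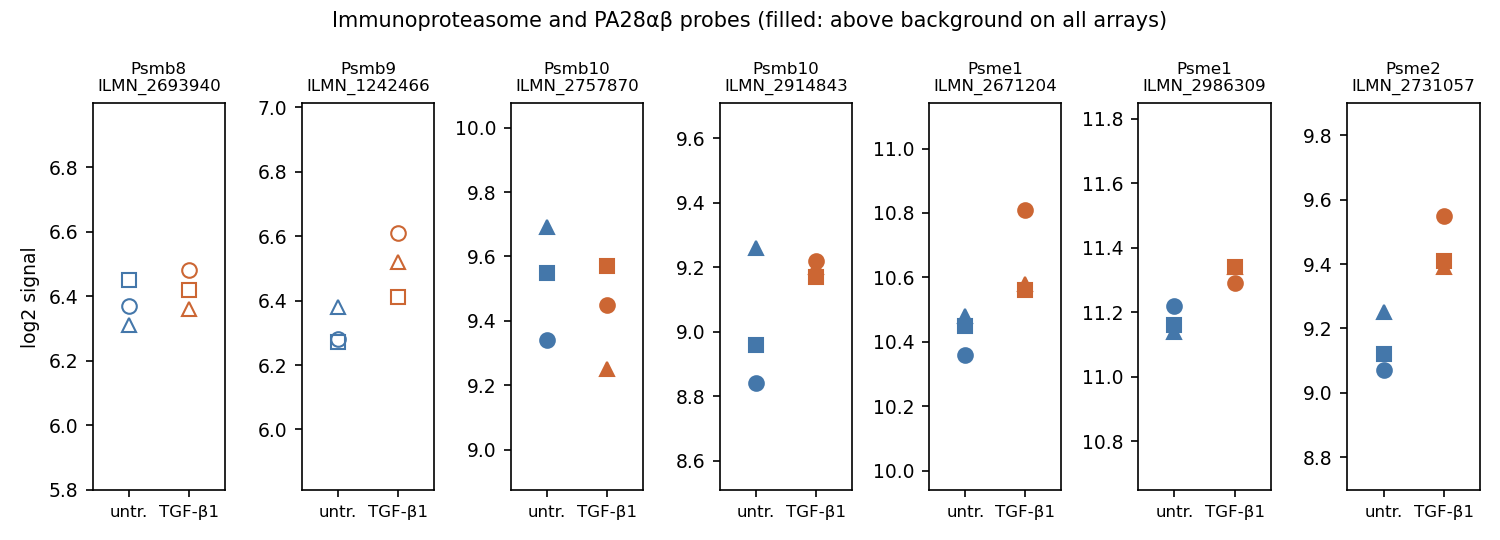
Log2 signal (y axis, each panel spanning 1.2 units) of the probes of Psmb8, Psmb9, Psmb10, Psme1 and Psme2 on each array, untreated at left and TGF-β1 at right of a panel, with 1 symbol per replicate number; filled symbols mark probes above background on all arrays. The Psmb8 and Psmb9 probes are open, and the groups are apart in the filled panels of Psme1 and Psme2 but not in those of Psmb10.

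The 2 genes named for a subunit they bind were both tested. Psmc3ip, a meiotic recombination factor known as Hop2, gave 8.19, 8.21 and 8.23 in untreated cells and 8.75, 8.98 and 8.65 with TGF-β1, a log2 fold change of 0.58 (1.499-fold, SE 0.10, limma adjusted p = 0.00233). The untreated arrays lay within 0.04 of each other, far below the treated ones. Psme3ip1, which binds PA28γ, gave 0.20 and did not pass (adjusted p = 0.182).

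The shift was also read array by array over the 37 tested proteasome genes. The median over these genes of the deviation from each gene's mean was -0.13, -0.15 and -0.07 for untreated cells and 0.12, 0.13 and 0.10 for cells given TGF-β1. Over all genes tested it was -0.02, -0.02 and 0.02 for untreated cells and 0.03, 0.01 and -0.01 with TGF-β1. On the untreated arrays 6, 5 and 9 of the 37 genes lay above their own mean, and on the TGF-β1 arrays 29, 34 and 32 did. Each mean is over all arrays of both groups, so these counts restate the group difference, and genes are not replicates. Untreated array 3 was the highest of its group for 21 of the 37 genes and the lowest for 10, Psmd14, Psmd9 and Psma3 among the latter. In bulk RNA, a change in the share of cells and a change per cell cannot be told apart.

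Among the proteins that work with the proteasome but fall outside the symbol rule, 2 of 6 tested genes were higher and 0 lower. Here and for the lists below, 17.3% of all genes tested were called higher and 18.4% lower. No list was tested against these shares. Pomp, the maturation factor that helps the half-made core close, gave 12.50 ± 0.06 (SD, n = 3) in untreated cells and 12.76 ± 0.06 with TGF-β1, a log2 fold change of 0.26 (limma adjusted p = 0.0374). Uchl5, a deubiquitinase of the 19S particle, rose by 0.32 (adjusted p = 0.0416), but its other tested probes gave 0.17 and 0.08, and the mean of its probes gave 0.19 and did not pass (adjusted p = 0.362). Both calls were lost with some arrays left out: Uchl5 with any but untreated array 2, at adjusted p of 0.0673 to 0.147, and Pomp with any but untreated array 3, at 0.0657 to 0.137. Zfand2a (0.20) and Ecpas (-0.14) did not pass. Upstream of the proteasome, 0 of 6 tested genes of ubiquitin and its activation and 0 of 9 shuttle and p97 genes were called, Vcp, the p97 unfoldase, at 0.27 (adjusted p = 0.0506) and Faf2 at -0.30 (adjusted p = 0.0936).

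Of 9 tested genes of the Nrf1 and Nrf2 system, which sets proteasome gene expression, 1 was higher and 1 lower, beside 17.3% and 18.4% of all genes. Mafg, a partner of both factors, and Nfe2l3, which encodes a relative of theirs, did not pass, at 0.29 (adjusted p = 0.0840) and 0.27 (adjusted p = 0.493). With the brightness covariate they passed, at 0.33 (adjusted p = 0.0212) and 0.58 (adjusted p = 0.00113). Nfe2l1 itself stood at -0.11 (adjusted p = 0.458), a gene named after its value was seen. Fbxw7, a ubiquitin ligase subunit that targets Nrf1, rose by 0.42 (adjusted p = 0.00465), and Nfe2l2, encoding Nrf2, fell by 0.42 (adjusted p = 0.0404). The Nfe2l2 call was lost without untreated array 1 (0.0719) or 2 (0.136) or TGF-β1 array 1 (0.124) or 2 (0.0658).

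Of 9 tested genes of antigen processing and interferon control, the system that governs the immunoproteasome, 0 were higher and 3 lower. Over all genes tested 17.3% were called higher and 18.4% lower, and whether this list differs was not tested. The interferon-γ receptor genes Ifngr2 and Ifngr1 fell by 0.80 (adjusted p = 0.00226) and 0.68 (adjusted p = 0.00136) on the log2 scale. Irf2, a transcription factor of the interferon system, fell by 0.64 (adjusted p = 0.000829). Jak2 (-0.14) and Stat2 (0.14) did not pass, and the median of the 9 genes was -0.08, beside 0.03 over all genes.

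Markers of other cells were few. All 5 epithelial markers with a named probe, Cdh1, Krt8, Krt18, Krt19 and Cldn4, were above background on all arrays. Called changed were 3 of them, beside 17.3% of all genes called higher and 18.4% lower. Cldn4, of tight junctions, rose by 2.90 and the keratin Krt18 by 0.47 on the log2 scale, the keratin Krt19 fell by 1.59, and Krt8 (-0.08) and Cdh1 (-0.02) did not pass. Their part in the members' values was not tested. Of the immune markers, whose cells carry Psmb8 to Psmb10 without induction, 1 of 5 was above background, Cd3e on 1 untreated array, and the summed signal of the list ran from 669 to 677 in untreated cells and from 672 to 700 with TGF-β1. Of the fibroblast markers 0 of 5 were above background, with sums of 435 to 468 and 450 to 469. Of the endothelial markers 1 of 3 was, Pecam1 on the 3 untreated arrays and 0 TGF-β1 arrays, with sums of 352 to 362 and 315 to 369, and Pecam1 was called lower (limma adjusted p = 0.00998), at least 1.08-fold. That bound sets the mean of the untreated arrays against the lowest signal above background on the TGF-β1 arrays. The Runx3 probe did not rise above background on any of the 6 arrays. Whether it lies in the deleted part was not checked. Arrays of 1 group correlated with r of 0.982 to 0.997 and arrays of different groups with 0.936 to 0.953 across genes, which are not independent replicates. Between 11381 and 11797 of 25697 probes per array were above background, or 44.3% to 45.9%.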

How the data were processed

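Per the labels and the paper, the authors read the BeadChips in the GenomeStudio Gene Expression module 1.9 and normalized them by its quantile and average methods. The deposited non-normalized signal intensities are mean bead signals per probe on a linear scale, with no background subtracted (lowest 48.6), and the deposited detection p-values set each probe against negative control beads. The authors' normalized intensities served as an alternative.

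Here the signal intensities were quantile-normalized and transformed to log2 in limma 3.58.1 (R 4.3.3). Of 25697 probes, 23978 had 1 symbol in the platform annotation and 1719 had none. The number of arrays limits the precision. The filter left 7725 genes and 11189 probes, and the brightest tested probe stood for a gene. Groups were compared with lmFit and eBayes, with Benjamini-Hochberg adjustment over all genes (or probes) and a threshold of 0.05. The methods' SAM was not run, since it permutes sample labels. The fit was tested on simulated data with planted changes of 1.5-fold or more. All tested members but Psmd8 changed by less, so that test did not show how well changes of their size are found.

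The members, lists and tests were chosen with earlier results of these data known. Every member was named. Array values were given for up to 6 largest increases and decreases among calls without overlap, for the immunoproteasome genes and for Psmb5, Psmb6 and Psmb7. Psmd14 and second probes were added for their spread or disagreement. From each list, up to 4 called genes and 2 others were named. Psma8, Psmb11, Psmd3, Psmf1, Psmg4, Trp53 and Epcam had no probe paired with their symbol and were not analysed here.

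The alternatives were neqc, mean scaling, the authors' values, no filter, a filter at a detection p of 0.01 on all arrays, the mean of probes, the replicate block, array brightness as a covariate, a trend with a robust prior, the methods' t-test, a 1.5-fold limit and leaving out each array. Leaving out untreated array 3 and TGF-β1 array 1 together was added after seeing the data.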

Additional observations from a re-analysis of the deposited data

How the results depend on the processing

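Members called higher numbered 12 to 18 under neqc, mean scaling, the authors' values, no filter, the stricter filter, the mean of probes, the robust prior and the methods' t-test, and 22 with array brightness as a covariate, beside 15 as reported. In each alternative 0 were called lower, and all 15 called genes stayed positive. That sign had little room to change, since the groups of these genes did not overlap. The filters, replicate block, robust prior, t-test and 1.5-fold limit also left their fold changes as they were. With the brightness covariate 26 member probes and 24.6% of all genes were higher, and Psma3, Psmb4, Psmc1, Psmd9, Psmd11, Psmd14 and Psme4 gained a call. Other calls were gained by Psma5 (mean scaling, robust prior), Psmb4 (mean of probes, robust prior), Psmd7 (mean of probes), Psmd4 and Psme4 (robust prior) and Psmc2 and Psme1 (the methods' t-test). With a limit of 1.5-fold, 1 member and 1 member probe were higher, and over all genes 448 were higher and 682 lower. The share called higher was then 2.56% of members and 5.8% of all genes, so the members no longer stood above. Same-numbered arrays did not deviate together (r = -0.66, 0.07 and -0.78). Some differently numbered arrays did: untreated 3 with TGF-β1 1 (r = 0.78), and untreated 1 and 2 with TGF-β1 3 (r = 0.71 and 0.56). Deviations from the mean of a group's 3 arrays sum to 0 for each gene, so these correlations constrain each other. They cannot decide whether the numbers pair the cultures. With the replicate block 5 members, 5 member probes and 750 genes were higher. That was 12.8% of members beside 9.71% of all genes, a narrow gap.

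Calls were lost under neqc by Psma4, Psmb2 and Psmb5 (adjusted p of 0.0826, 0.0543 and 0.0674), under mean scaling by Psmb5 and Psmd1 (0.0861 and 0.0817), with the authors' values by Psma4 (0.0507) and without the filter by Psma4, Psmb5 and Psmd1 (0.0650, 0.0599 and 0.0537). Psmd1 also lost it with the robust prior (0.0621), and Psma2, Psma7, Psmb2, Psmb5 and Psmb6 in the methods' t-test after adjustment. Leaving out 1 array at a time left 7 to 15 members and 7 to 16 member probes called higher. Of the 15 calls, 6 were kept with each array left out. With untreated array 3 and TGF-β1 array 1 both left out, 13 members were higher. Without untreated array 3, Psmb4, Psmd4, Psme4 and Psmg2 gained a call.

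Genes whose sign changed had not passed. With mean scaling Psmc3 was -0.0033, and with the mean of probes Psmb10 was 0.0339. With the brightness covariate Psmb1 was -0.0665, Psmd5 -0.0047, Psmg3 -0.0435, Ecpas 0.11 and Cdh1 0.23. With 1 array left out, Psmc3 ran from -0.0191 to 0.09, Psmb1 from -0.0561 to 0.0885, Psmg3 from -0.0420 to 0.18, Psmg1 from -0.22 to 0.13, Psmd9 from -0.0788 to 0.31 and Psmd14 from -0.18 to 0.51. Ecpas ran from -0.40 to 0.0416 and Cdh1 from -0.26 to 0.15. With both arrays left out Psmb1 was -0.00056, Psmg1 0.10 and Psmc3 0.12. Apart from what the settings themselves change, such as the genes or arrays entering the fit, the cause was not tested.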

Other observations

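Aggregated proteins that escape the proteasome are cleared by autophagy, and the receptors and coat proteins of that route did not move one way. Of 8 tested genes, 2 were higher and 1 lower (limma, adjusted p under 0.05 over all genes). Over all genes tested the shares were 17.3% higher and 18.4% lower, and whether this list differs from them was not tested. Hdac6, which carries ubiquitinated proteins to the aggresome, gave 7.01 ± 0.19 (SD, n = 3) on the log2 scale in untreated cells and 7.66 ± 0.32 with TGF-β1, a log2 fold change of 0.65 (adjusted p = 0.0171). The call was lost without TGF-β1 array 2 (adjusted p = 0.0726) or 3 (0.0539), and in the methods' t-test (adjusted p = 0.107). Under the stricter filter Hdac6 was not tested. Map1lc3a, an autophagosome coat protein, rose by 0.50 (adjusted p = 0.00534), while Gabarapl1, of the same protein family, fell by 0.61 (adjusted p = 0.00269). The receptors Sqstm1 (0.26, adjusted p = 0.0844) and Bag3 (0.26, adjusted p = 0.123) did not pass. These genes were chosen with earlier results of these data known.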
